A study of Mus musculus with 6 samples.

Results

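The genes described here are the collagen chains, the laminin chains and 4 further basement membrane genes (Nid1, Nid2, Hspg2 and Agrn) in newborn mouse lenses with and without Hsf4. They were chosen by gene symbol alone, from probe sets to which the platform annotation gives a single symbol. This gave 80 of the 22626 tested probe sets and 50 of the 12393 genes, namely 36 collagen chains, 10 laminin chains and the 4 others. Where a gene had several probe sets, the one of highest mean log2 intensity stands for it, and the capsule type IV chains were compared with the fibrillar collagens. The arrays hold 3 wild-type and 3 Hsf4-null samples, all of lens from newborn mice of strain ICR, each amplified from 50 ng of total RNA. Hsf4-null mice lack the lens member of the heat shock factor family in every tissue, not in the lens alone. No source used here says whether the wild-type mice were littermates or whether lenses were pooled for an array, so p-values measure the spread between these samples only.

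The lens capsule is a thick basement membrane that encloses the lens and is laid down by the lens epithelium and by young fiber cells. Basement membranes are built from a type IV collagen network and a laminin network, which nidogens and the heparan sulfate proteoglycans perlecan and agrin hold together. Col4a1 chains assemble with Col4a2 chains, while Col4a3 and Col4a4 chains assemble with Col4a5, and Col4a5 also assembles with Col4a6. Fibrillar collagens form the fibers of connective tissue, cartilage and vitreous. Hsf4 is needed for fiber cell maturation, and its loss causes cataract.

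The genes for the paired type IV chains lie head to head in the mouse genome, and their start regions are shown because these are the capsule genes on which the comparison turns. The windows run from 250 bases before to 50 bases after the transcription start in RefSeq on build GRCm38.p6, and 35 of the 50 genes had 1 or more windows, 40 in all. The Col4a1 window (minus strand, chr8:11312777-11313076) and the Col4a2 window (plus strand, chr8:11312555-11312854) share 78 bases, printed in capitals on the strand of each gene. The Col4a5 window (plus strand, chrX:141475169-141475468) starts 842 bases beyond the end of the Col4a6 window.
Col4a1: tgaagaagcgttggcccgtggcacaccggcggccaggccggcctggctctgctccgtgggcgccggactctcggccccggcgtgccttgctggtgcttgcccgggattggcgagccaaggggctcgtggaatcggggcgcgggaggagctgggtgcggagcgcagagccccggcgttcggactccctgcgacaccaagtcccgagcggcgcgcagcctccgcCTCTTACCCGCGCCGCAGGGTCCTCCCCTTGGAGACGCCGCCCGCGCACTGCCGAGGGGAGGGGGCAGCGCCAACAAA
Col4a2: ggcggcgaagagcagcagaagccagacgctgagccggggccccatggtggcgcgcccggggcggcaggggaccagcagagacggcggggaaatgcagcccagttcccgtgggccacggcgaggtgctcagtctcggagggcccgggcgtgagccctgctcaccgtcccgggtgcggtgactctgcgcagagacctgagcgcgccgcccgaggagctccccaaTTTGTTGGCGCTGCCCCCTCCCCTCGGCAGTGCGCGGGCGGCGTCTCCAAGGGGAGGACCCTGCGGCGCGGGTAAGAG
Col4a5: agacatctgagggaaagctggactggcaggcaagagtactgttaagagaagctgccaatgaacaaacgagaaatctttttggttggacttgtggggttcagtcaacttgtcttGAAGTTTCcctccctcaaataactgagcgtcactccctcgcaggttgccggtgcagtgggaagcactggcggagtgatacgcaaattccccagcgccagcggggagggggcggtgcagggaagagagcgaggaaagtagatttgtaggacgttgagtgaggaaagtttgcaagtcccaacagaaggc
In the Col4a5 window the capitals mark letters that match a part of a heat shock element, the sequence that heat shock factors bind. The search covered GAANNTTC and TTCNNGAA, each of which reads the same on both strands, and a longer element can hold both. A match was present in 3 of the 35 member genes with a window (40 windows in all). These were Col4a5 (137 bases before the start), Lama2 (230 bases before) and Col17a1 (79 bases before). Over all genes, 15.1% of the 32851 windows of 300 bases held a match, so these letters are common and a match is a description only.

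The arrays matched their labels at the targeted gene. Hsf4 read 9.09, 9.39 and 9.56 on the log2 scale in wild-type lenses, against 4.26, 4.09 and 3.78 in Hsf4-null lenses, although no source used here says whether its probe set lies within the deleted region. Correlations of log2 values were 0.991 to 0.994 within a group and 0.982 to 0.990 across groups. Of 11 lens markers, 2 were lower in Hsf4-null lenses (Bfsp1, a beaded filament gene, by a log2 fold change of -1.65, and Prox1, a fiber cell transcription factor, by -0.83) and 0 were higher. Of all genes 2.11% were called lower and 0.775% higher. In 5 of the 11 markers every Hsf4-null array lay below every wild-type array, beside 11.5% of all genes. Cryba1 and Crybb1, the brightest of the 11 lens markers, lay near the top of the scale in both groups, at mean log2 intensities of 14.32 and 14.13. Detection calls were not analysed here, and in whole lenses fewer cells of a type and less RNA per cell cannot be told apart.

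Among these matrix transcripts Col1a1 alone differed between the groups by the test used. Of the 50 genes, 1 was higher (Col1a1), 0 were lower and 49 did not pass at an adjusted p under 0.05 from limma, against 0.775% of all 12393 genes called higher and 2.11% called lower. At an unadjusted p under 0.05 the counts were 3 higher (Col1a1, Col18a1 and Agrn) and 2 lower (Lama1 and Col13a1), where 7.34% of all genes were higher and 8.38% lower, so neither count of genes was above the background. This holds for the brightest probe set of each gene. Over all 80 member probe sets 9 were higher and 2 lower, beside 1546 and 1934 of all 22626 probe sets. Probe sets of the same gene are not independent. The log2 fold change was above 0 in 33 genes and below 0 in 17, with a median of 0.08 beside 0.01 over all genes. All 3 Hsf4-null arrays lay above all 3 wild-type arrays in 2 genes (Col1a1 and Col14a1) and below them in 3 (Col4a1, Col4a2 and Col13a1). Among all genes 10.1% were separated upward in this way and 11.5% downward, so the count of separated matrix genes was not above the background.

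The type IV chains, the framework of the capsule, showed small differences. Of the 6 chains, 0 passed the test, and 5 had a log2 fold change below 0, with a median of -0.09. Col4a1 read 12.66, 12.63 and 12.71 on the log2 scale in wild-type lenses, against 12.43, 12.55 and 12.57 in Hsf4-null lenses. Every Hsf4-null array was below every wild-type array, yet the log2 fold change was -0.15 (95% interval -0.36 to 0.07, adjusted p = 0.511 from limma). The other Col4a1 probe set gave 11.11, 11.00 and 11.17 against 10.87, 10.82 and 10.96, again without overlap and again not called, with a log2 fold change of -0.21. Col4a2, whose chain assembles with Col4a1, measured 12.03, 12.07 and 12.10 in wild-type lenses, against 11.90, 11.98 and 12.02 in Hsf4-null lenses. Its groups were separated by a gap narrower than the spread of either group, and the log2 fold change was -0.10 (95% interval -0.31 to 0.12). The arrays read at most 14.28 to 14.37, and whether readings as high as those of Col4a1 and Col4a2 were compressed was not tested.

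Col4a5, the X-linked chain shared by the other capsule networks, had the most negative value among type IV chains. On the log2 scale it read 11.46, 11.45 and 11.53 in wild-type lenses, against 10.98, 11.47 and 11.08 in Hsf4-null lenses. The wild-type arrays lay close together (SD 0.04, n = 3), and of the Hsf4-null arrays replicates 1 and 3 lay below them while replicate 2 lay among them. The log2 fold change was -0.30 (95% interval -0.63 to 0.02, adjusted p = 0.36 from limma), and the second Col4a5 probe set gave -0.10. Col4a6, the partner of Col4a5, measured 9.79, 9.69 and 9.82 in wild-type lenses, against 9.61, 9.79 and 9.85 in Hsf4-null lenses. These groups overlapped fully, with a log2 fold change of -0.02 (95% interval -0.26 to 0.22). Col4a3 measured 7.30, 6.73 and 7.84 against 7.03, 7.33 and 7.22 (log2 fold change -0.09). Col4a4 measured 4.41, 4.76 and 5.13 against 4.89, 5.06 and 4.69 (log2 fold change 0.11), and it read below the array median, which was 5.22 to 5.38. In both of these chains, which form a network with Col4a5, the Hsf4-null values lay inside the wild-type range.

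Among the fibrillar collagens Col1a1 rose. Col1a1, the more abundant chain of type I collagen, read 6.81, 8.12 and 7.20 on the log2 scale in wild-type lenses, against 9.07, 9.18 and 9.55 in Hsf4-null lenses. All Hsf4-null arrays were above all wild-type arrays, and the wild-type arrays were spread more widely (SD 0.67 against 0.25, n = 3 each). By limma it was 1.89 log2 units higher (standard error 0.31, adjusted p = 0.0201), a 3.71-fold increase. The second Col1a1 probe set gave 4.18, 4.50 and 3.96 against 5.34, 4.90 and 5.75, also without overlap, and was called as well (log2 fold change 1.12, adjusted p = 0.049 from limma). The call for Col1a1 was lost when wild-type replicate 3 or any single Hsf4-null array was left out (adjusted p from 0.0513 to 0.095 from limma), while the log2 fold change stayed between 1.61 and 2.26 over all 6 omissions. Over every alternative tried, its adjusted p ran from 0.00307 to 0.237.

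**Figure D1:**
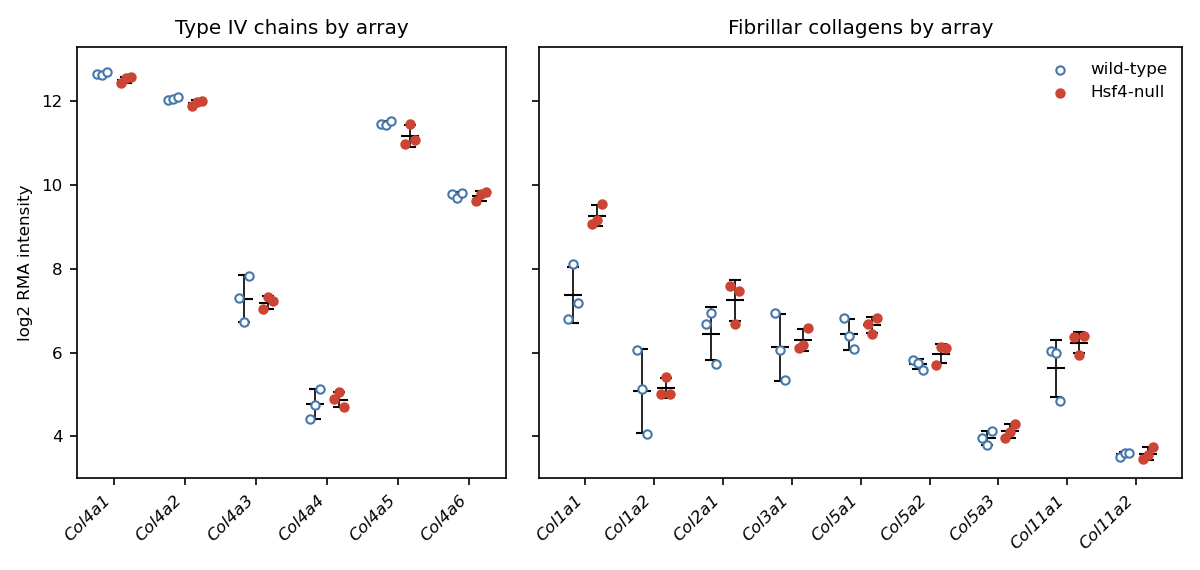
Log2 RMA intensity (vertical axis) of the 6 type IV chains (left) and the 9 measured fibrillar collagens (right) on each array, with open blue points for wild-type and filled red points for Hsf4-null lenses and bars for the mean and SD (n = 3). The type IV points of the 2 groups lie close together, whereas the Col1a1 points of Hsf4-null lenses, from 9.07 to 9.55, all lie above the wild-type points.

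Col1a2, the other chain of type I collagen, gave no such separation. It measured 6.07, 5.13 and 4.05 in wild-type lenses, against 5.02, 5.42 and 5.003 in Hsf4-null lenses. The wild-type arrays spanned the whole Hsf4-null range, and the log2 fold change was 0.07 (95% interval -0.95 to 1.09), with -0.30 for its second probe set. Col1a2 read below the array median on average, where changes are harder to measure. By the brightest probe sets, wild-type replicate 1 had the lowest Col1a1 value and the highest Col1a2 value of the 6 arrays. The second Col1a1 probe set was instead lowest in wild-type replicate 3 (3.96, against 4.18 in replicate 1), so this order rests on 1 Col1a1 probe set. The log2 difference Col1a1 minus Col1a2 was taken from the brightest probe sets only. Centred over the arrays, it was -2.46, -0.22 and -0.06 for wild-type, against 0.85, 0.55 and 1.34 for Hsf4-null lenses. The groups did not overlap, and the difference shifted by 1.83 (exact two-sided permutation p = 0.1, the smallest that 3 against 3 arrays can give). Col1a1 was itself separated on the same arrays, so this result is not independent of its call. Adjustment over the 4 chain pairs computed gave 0.267 in this exact test. The pairs Col4a1 with Col4a2, Col4a3 with Col4a4 and Col4a5 with Col4a6 shifted by -0.05, -0.21 and -0.28 (exact permutation p from 0.2 to 0.5).

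**Figure D2:**
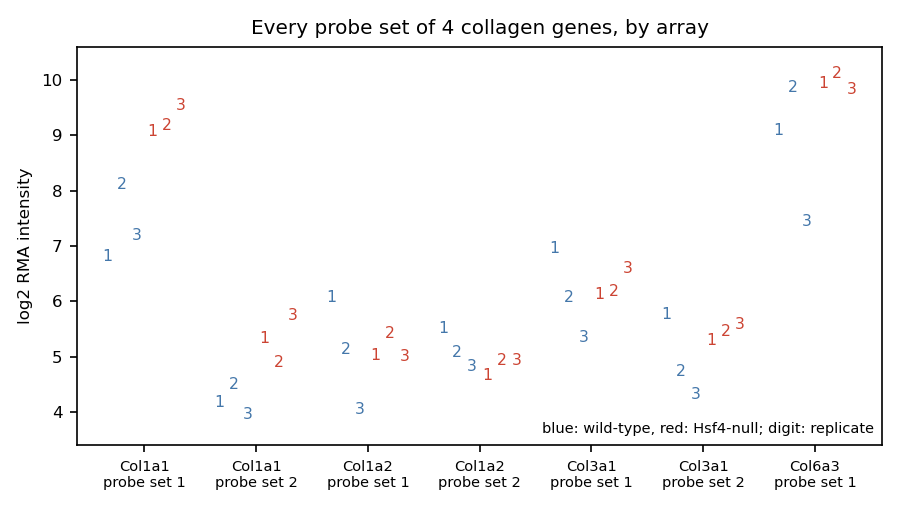
Log2 RMA intensity (vertical axis) of each probe set of Col1a1, Col1a2, Col3a1 and Col6a3 on each array, the digit giving the replicate, blue for wild-type and red for Hsf4-null lenses. Both Col1a1 probe sets are separated between the groups, and in Col6a3 wild-type replicate 3, at 7.44, lies below the other arrays.

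The other fibrillar collagens were not called. Col2a1, the main collagen of cartilage and vitreous, measured 6.68, 6.94 and 5.73 in wild-type lenses, against 7.59, 6.68 and 7.47 in Hsf4-null lenses (log2 fold change 0.80, adjusted p = 0.327 from limma). Col11a1, which joins type II collagen in the same fibrils, measured 6.04, 5.996 and 4.83 against 6.38, 5.95 and 6.39 (log2 fold change 0.61). Both genes were lowest in wild-type replicate 3, and without this array the log2 fold changes were 0.44 and 0.22. Col3a1, a collagen of vessel walls and loose connective tissue, measured 6.95, 6.07 and 5.35 against 6.12, 6.18 and 6.59 (log2 fold change 0.17), and the sign turned without that array (-0.22). The sign of Col1a2 turned too, to -0.45. Among type V chains, which start fibrils, Col5a1 measured 6.82, 6.41 and 6.09 against 6.68, 6.46 and 6.83 (log2 fold change 0.22), and Col5a2 measured 5.84, 5.76 and 5.60 against 5.71, 6.13 and 6.10 (log2 fold change 0.25). These groups overlapped. Col5a3, at 3.97, 3.79 and 4.13 against 3.96, 4.10 and 4.31, and Col11a2, at 3.52, 3.61 and 3.61 against 3.46, 3.55 and 3.76, read below the array median throughout.

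Set against each other, the fibrillar collagens lay above 0 and the type IV chains mostly below it. All 9 measured fibrillar collagens had a log2 fold change above 0, from 0.01 (Col11a2) to 1.89 (Col1a1), beside 6356 of all 12393 genes. Their median was 0.22, which is 0.31 above that of the type IV chains. The shared sign rests on the brightest probe sets and on 1 array. The second Col1a2 probe set gave -0.30, and Col1a2 and Col3a1 fell below 0 without wild-type replicate 3. As a mean over genes on each array, centred over the arrays, fibrillar minus type IV was 0.04, 0.00 and -0.88 in wild-type lenses, against 0.32, 0.06 and 0.45 in Hsf4-null lenses. The Hsf4-null arrays were all above the wild-type arrays, but wild-type replicate 3 stood far below the rest. This difference of means was 0.55 higher in Hsf4-null lenses, with a pooled SD within groups of 0.39, and 0.25 higher without wild-type replicate 3. The difference of medians, 0.31, became 0.21 on omitting wild-type replicate 3, 0.66 on omitting wild-type replicate 1 and 0.53 on leaving out dim probe sets. The classes also differed in how far the arrays lay apart. Among genes above the array median, the range over the 6 arrays had a median of 0.27 in 5 type IV chains, 1.58 in 6 fibrillar collagens and 0.69 in 7 laminin chains, beside 0.46 over 6889 genes. This range includes any shift between the groups. Most of these type IV chains were brighter than the fibrillar collagens, and the sets were not matched for brightness.

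**Figure D3:**
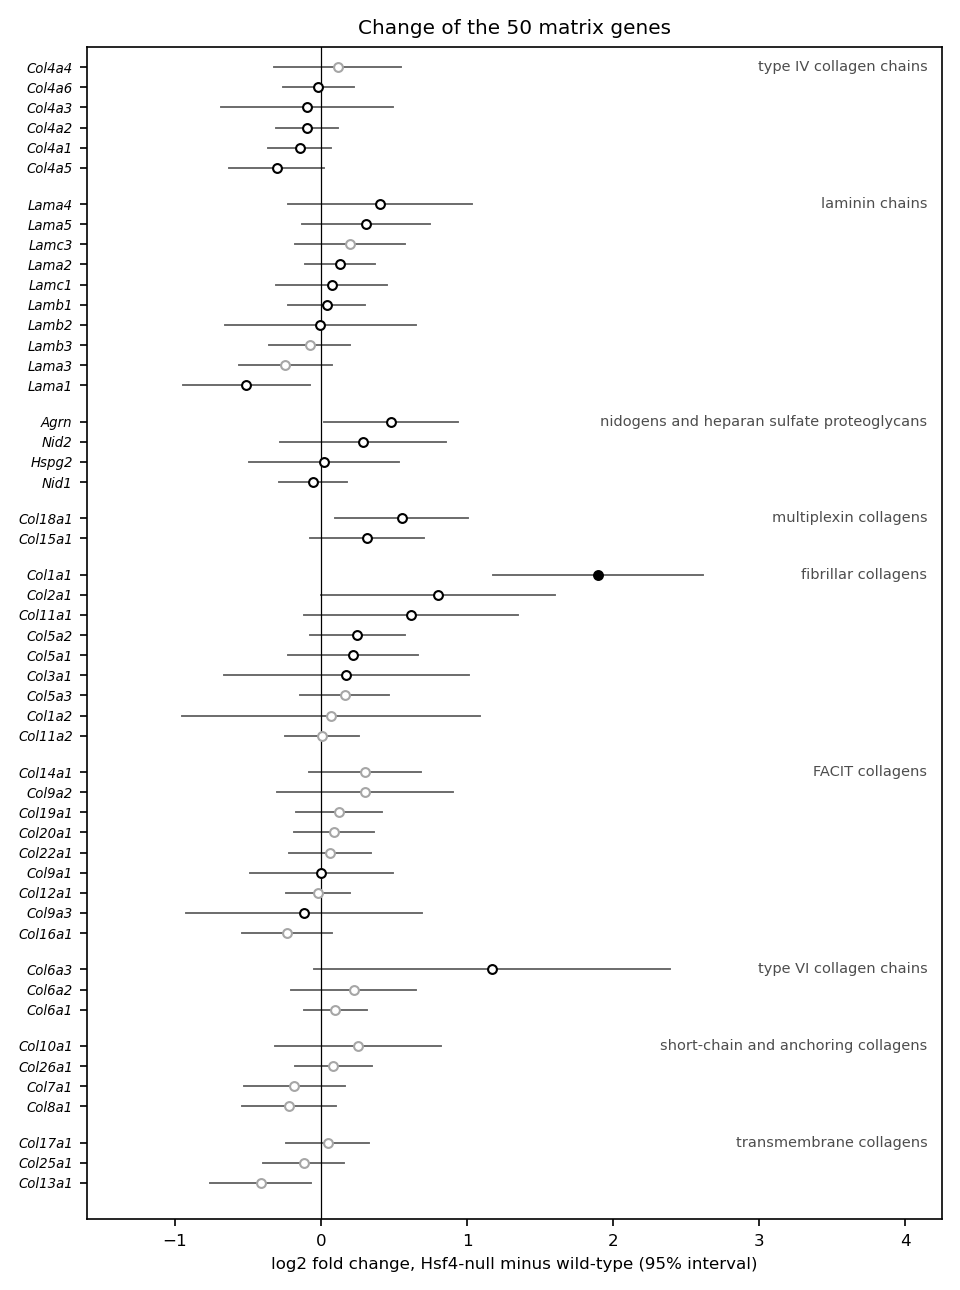
Log2 fold change (horizontal axis, Hsf4-null minus wild-type) of the 50 matrix genes by class, with 95% intervals from limma; the filled point is called, black open points are not called, and grey points are not called and read below the array median. Only Col1a1, at 1.89, passed the test, and the type IV chains lie between -0.30 and 0.11.

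None of the 10 measured laminin chains was called by limma, and at an unadjusted p under 0.05 there were 0 higher and 1 lower, beside 7.34% and 8.38% of all genes. The median log2 fold change was 0.05. The gene with the unadjusted p under 0.05 was Lama1, the alpha chain of the main laminin of embryonic basement membranes. It measured 7.42, 7.23 and 7.55 in wild-type lenses, against 6.60, 6.75 and 7.30 in Hsf4-null lenses. Hsf4-null replicate 3 overlapped the wild-type arrays, and the log2 fold change was -0.51 (95% interval -0.95 to -0.08, adjusted p = 0.248 from limma). Its partner chains differed less. Lamb1 measured 10.01, 9.83 and 9.91 against 9.87, 9.86 and 10.13 (log2 fold change 0.04, 95% interval -0.23 to 0.30). Lamc1 measured 9.65, 9.27 and 9.38 against 9.30, 9.40 and 9.81 (log2 fold change 0.07, 95% interval -0.31 to 0.45). In both partner chains the groups overlapped.

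Lama4, the alpha chain of vascular laminin, measured 7.02, 6.01 and 5.89 in wild-type lenses, against 6.72, 6.71 and 6.70 in Hsf4-null lenses. The Hsf4-null arrays were nearly identical, and wild-type replicate 1 lay above them while the other wild-type arrays lay below. The log2 fold change was 0.40 (adjusted p = 0.536 from limma). Without wild-type replicate 1 it was 0.76 and passed the test (adjusted p = 0.0191 from limma). Lama5, another alpha chain of vessels and epithelia, measured 6.97, 6.31 and 6.28 against 6.83, 6.71 and 6.94 (log2 fold change 0.31), with the same wild-type array highest. Lama2, known from muscle and nerve, measured 6.12, 5.86 and 6.004 against 6.10, 6.10 and 6.18 (log2 fold change 0.13), with overlapping groups. Lamb2 measured 5.94, 5.42 and 5.004 against 5.94, 5.37 and 5.05, nearly the same set of values in both groups. The epithelial chains Lama3 (4.05, 3.90 and 3.58 against 3.50, 3.60 and 3.70) and Lamb3 (3.36, 3.27 and 3.59 against 3.21, 3.42 and 3.36), and Lamc3 (3.92, 4.23 and 3.72 against 3.99, 4.08 and 4.39), read below the array median.

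The linkers of the basement membrane were not called either. Nid1, which bridges laminin and type IV collagen, measured 12.68, 12.63 and 12.66 in wild-type lenses, against 12.51, 12.73 and 12.57 in Hsf4-null lenses. The groups overlapped, and the log2 fold change of -0.06 had a 95% interval from -0.29 to 0.18. Nid2 measured 6.15, 5.70 and 5.32 against 6.43, 5.85 and 5.77 (log2 fold change 0.29). Hspg2, which encodes perlecan, measured 9.23, 8.56 and 9.29 against 8.79, 9.004 and 9.35 (log2 fold change 0.02, 95% interval -0.49 to 0.54). Both genes had an SD among wild-type lenses larger than the shift between groups. Agrn, which encodes agrin, measured 10.50, 10.11 and 9.84 against 10.67, 10.34 and 10.87 (log2 fold change 0.48, adjusted p = 0.307 from limma), with wild-type replicate 3 lowest and 0.32 without that array.

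The 21 remaining collagen chains, of the FACIT, type VI, short-chain, transmembrane and multiplexin classes, held no called gene. Col18a1, a basement membrane collagen and the source of endostatin, measured 9.54, 9.41 and 9.004 in wild-type lenses, against 9.96, 9.52 and 10.14 in Hsf4-null lenses. Its log2 fold change was 0.55 (adjusted p = 0.24 from limma), its second probe set gave 0.56, and the groups overlapped at 1 Hsf4-null array. Col15a1, the related multiplexin, had a log2 fold change of 0.31. Col6a3, a chain of beaded microfibrils, measured 9.09, 9.86 and 7.44 against 9.94, 10.13 and 9.84. Every Hsf4-null array was above 9.8, but wild-type replicate 2 overlapped them, and the log2 fold change of 1.17 (limma, adjusted p = 0.344) became 0.49 without wild-type replicate 3. Col9a1, a collagen of cartilage and vitreous, measured 11.90, 11.85 and 11.11 against 11.76, 11.50 and 11.61 (log2 fold change 0.00), again with wild-type replicate 3 lowest. Col13a1, a transmembrane collagen, measured 5.33, 5.23 and 4.79 against 4.63, 4.72 and 4.75, with the Hsf4-null arrays below (log2 fold change -0.41, adjusted p = 0.243 from limma). These genes outside the classes compared were chosen for description after their values were seen. Of the 50 members 23 read below the array median over all arrays, with log2 fold changes from -0.41 to 0.30.

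Single arrays stood out across many of these genes. Wild-type replicate 3 was the lowest of the 6 arrays in 22 of the 50 genes, or 44%, beside 19.7% over all genes. Hsf4-null replicate 3 was the highest in 18, or 36%, beside 18.4%. Among genes above the array median, wild-type replicate 3 was lowest in 14 of 22 members other than type IV chains, or 63.6%, beside 23.9% of all such genes. In the type IV chains this array was not the low one. Wild-type replicate 3 was the highest array in 5 of the 6 chains, beside 21.7% of all genes. Hsf4-null replicate 1 was the lowest in 4, beside 15.9%. The arrays lay close together in Col4a1, Col4a2 and Col4a6, with ranges over the 6 arrays from 0.20 to 0.27, and further apart in the other chains (0.55 to 1.11).

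**Figure D4:**
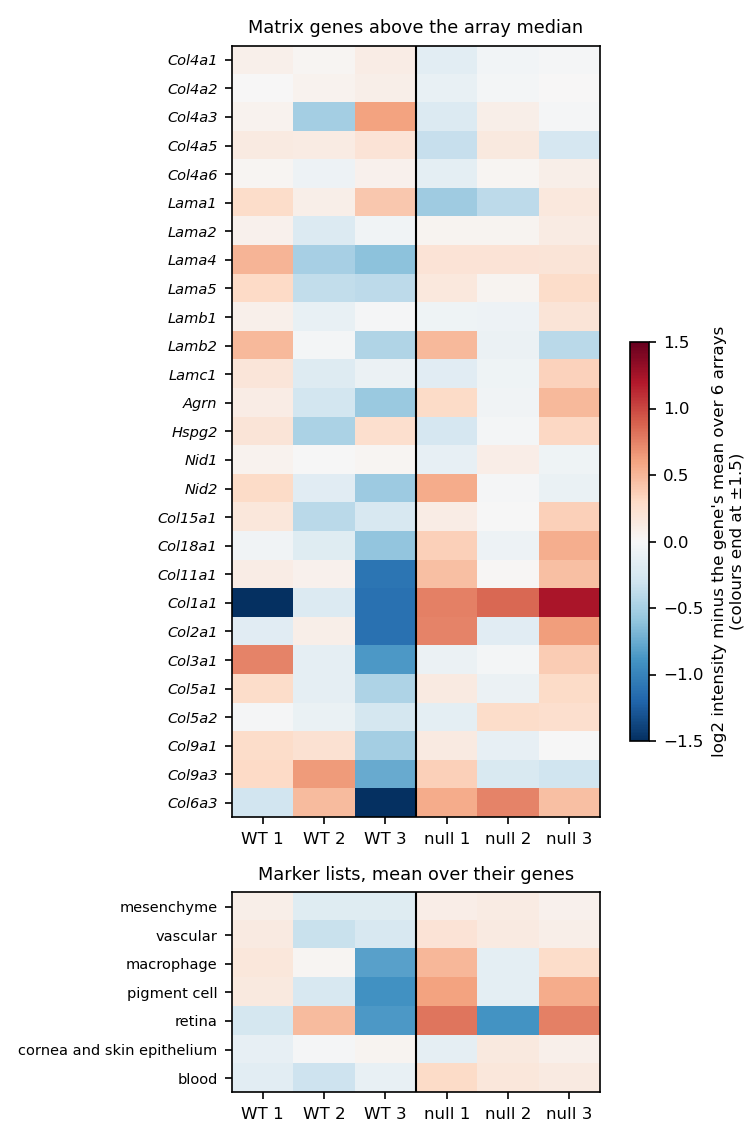
Log2 intensity of each of the 27 matrix genes above the array median on each array, as the difference from the gene's mean over the 6 arrays (top), and the mean of the same difference over each marker list (bottom); red is above and blue below the mean, and colors end at 1.5 in either direction. Wild-type replicate 3 is blue in most genes other than type IV chains and in the macrophage, pigment cell and retina marker lists. The retina list is lower still in Hsf4-null replicate 2 (-0.90, against -0.86), and the vascular list is lowest in wild-type replicate 2 (-0.34).

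Among markers of tissues that adjoin the lens, the macrophage and pigment cell lists were lowest in wild-type replicate 3. The retina list was lowest in Hsf4-null replicate 2. Of 14 macrophage markers 0 were called and 13 were lowest in wild-type replicate 3, with a median log2 fold change of 0.29. Their summed log2 level was 9.17 to 10.49 for wild-type, against 10.03 to 10.87 for Hsf4-null lenses, and the brightest were Mrc1 (log2 fold change 0.50) and Csf1r (0.29). Every Hsf4-null array was above every wild-type array in 3 of them, Aif1 (0.52), Lyz2 (1.68) and Ptprc (0.60), beside 10.1% of all genes. At an unadjusted p under 0.05 from limma 4 of the 14 were higher, beside 7.34% of all genes. For 7 pigment cell markers, led by Mitf (0.03) and Tyrp1 (1.30), 0 were called, the summed level was 11.58 to 12.03 against 11.81 to 12.26, and the median was 0.64. This sum weighs Mitf most, at a mean log2 intensity of 11.43. The others were Pmel (1.27), Dct (1.30), Tyr (0.64), Oca2 (0.28) and Slc45a2 (-0.10). At an unadjusted p under 0.05 from limma 2 of the 7 were higher and 0 lower, beside 7.34% and 8.38% of all genes. For 10 retina markers, led by Otx2 (0.57) and Stmn2 (0.67), 0 were called, the summed level was 8.44 to 10.22 against 8.39 to 10.65, and the median was 0.44. In all 3 lists the ranges of the summed level overlapped between the groups. The sums of the vascular and blood lists did not overlap between the groups.

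Of 12 vascular markers 0 were called, 5 had every Hsf4-null array above every wild-type array, beside 10.1% of all genes, and the median log2 fold change was 0.38. Their summed log2 level was 12.29 to 12.86 for wild-type, against 12.95 to 13.02 for Hsf4-null lenses, with Rgs5, a pericyte gene (0.38), and Flt1, an endothelial receptor (0.38), the brightest. The log2 fold change was above 0 in 10 of the 12 and below 0 in 2, Tie1 (-0.28) and Pecam1 (-0.22). Of 13 markers of mesenchyme, a tissue that makes fibrillar collagens, 1 was higher, beside 0.775% of all genes. This was Twist1 (log2 fold change 0.998, adjusted p = 0.00341 from limma), at a mean log2 intensity of 3.92 for wild-type, against 4.92 for Hsf4-null lenses. The mesenchyme sum was 10.69 to 11.07 against 10.74 to 10.98, and its brightest members, Pdgfra (-0.06) and Foxc1 (0.03), were not called. This sum weighs the brightest genes most, and Pdgfra had a mean log2 intensity of 10.27. Which cells gave the Pdgfra signal was not tested. Twist1 and Twist2 (0.65, not called) had every Hsf4-null array above every wild-type array, beside 10.1% of all genes. Prrx2 (-0.25, not called) had every one below, beside 11.5%. These genes read below the array median. Dcn, Lum and Kera, which define corneal and scleral stroma, read near the bottom of the scale in both groups, at means of 3.87, 3.90 and 3.45 for wild-type, against 3.78, 4.14 and 3.60 for Hsf4-null lenses. These 3 genes and Postn are also in the list of other matrix proteins described later. None of 7 cornea and skin epithelium markers was called (median -0.06, summed level 6.77 to 6.89 against 6.74 to 7.06), led by Krt5 (-0.25) and Trp63 (0.68). None of 3 blood markers, all below the array median, was called (median 0.61, summed level 5.94 to 6.25 against 6.51 to 6.75). Alas2 (0.61) and Slc4a1 (0.72) were above 0 and Hba-a1 (-0.14) was below. The part of these cell types in the matrix values was not tested.

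Genes that process and anchor the matrix were described from related lists, and here the called genes were lower. Over all genes, too, more were called lower (2.11%) than higher (0.775%). Of 23 genes for collagen folding, modification and crosslinking, 0 were higher and 2 were lower, with a median log2 fold change of -0.04. P4ha2, a prolyl hydroxylase subunit that stabilizes collagen helices, measured 7.14, 6.87 and 7.06 in wild-type lenses, against 6.50, 6.14 and 6.16 in Hsf4-null lenses. Its log2 fold change from limma was -0.76 (adjusted p = 0.0286). Loxl1, a lysyl oxidase that crosslinks elastin and collagen, measured 9.13, 9.17 and 9.25 against 8.57, 8.64 and 8.72, with a log2 fold change from limma of -0.54 (adjusted p = 0.0273). Neither gene overlapped between the groups. The call for Loxl1 was lost in each of the 6 omissions of an array (adjusted p from 0.0565 to 0.103 from limma), and that for P4ha2 in all of them except that of Hsf4-null replicate 1 (0.0575 to 0.119). Serpinh1, the collagen chaperone Hsp47, was not called and had a log2 fold change of -0.06.

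Of 19 matrix proteases and their inhibitors, 0 were higher and 1 was lower (median -0.02), beside 0.775% and 2.11% of all genes. Timp3, a metalloproteinase inhibitor that binds to the matrix, measured 10.71, 10.79 and 11.00 in wild-type lenses, against 10.03, 10.004 and 10.09 in Hsf4-null lenses. The groups were far apart relative to their spread (limma, log2 fold change -0.79, adjusted p = 0.00909), and 3 of its 4 probe sets were called lower. Timp4, an inhibitor of the same family, measured 6.36, 5.80 and 6.25 against 7.64, 8.23 and 6.85, with every Hsf4-null array above every wild-type array, and was not called (log2 fold change 1.44, adjusted p = 0.0721 from limma). It was chosen for description after its values were seen, and its second probe set gave a log2 fold change of 0.09. None of the 16 matrix receptors was called (median -0.10), the smallest p-values being those of Sdc4 (log2 fold change 0.29) and Itga6 (-0.25). None of 26 other basement membrane and matrix proteins was called (median 0.06), and Matn2 (-0.71, adjusted p = 0.0639 from limma) and Ogn (-0.51, adjusted p = 0.085 from limma) came closest. At an unadjusted p under 0.05 from limma, 7.34% of all genes were higher and 8.38% lower. There were 1 protease or inhibitor higher and 2 lower, 1 receptor higher and 0 lower, and 4 other matrix proteins higher and 3 lower. Of the 23 folding, modification and crosslinking genes, 0 were higher and 4 lower, namely P4ha2, Loxl1, Plod1 (log2 fold change -0.43) and Bmp1 (-0.29). In these 4 every Hsf4-null array was below every wild-type array, beside 11.5% of all genes. Pcolce2 (0.22) alone in that list was separated upward, beside 10.1%.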

How the data were processed

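RNA of 6 newborn mouse lens samples was hybridized to Affymetrix mouse arrays. RMA, run by the authors, gave the deposited linear intensity of each probe set on each array; no source used here names its version. For this account log2 was taken and 22626 of 22690 probe sets, all but 64 array controls, were fitted with lmFit and eBayes (limma 3.58.1, R 4.3.3, 3 against 3 arrays, no block). A gene was called where p, adjusted by Benjamini-Hochberg over all probe sets, was under 0.05. The annotation gave 20380 probe sets 1 symbol and 691 several, and 1555 are unnamed here; 20351 symbols were updated to RefSeq names of GRCm38.p6, which also gave the promoter windows. A gene is its brightest probe set.

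Members, lists and alternatives were chosen with earlier results of these data known. The rule for named genes gave values by array for Hsf4, all type IV, fibrillar and laminin chains, Nid1, Nid2, Hspg2, Agrn and called members, and from the other lists the called genes and otherwise 2, by p or, for markers, by mean. Summed levels are log2 of summed intensities. The fit was tested on simulated data. Alternatives were other estimates of spread (a replicate block, array weights, trended and robust variance, the methods' t-test without the significance analysis of microarrays that goes with it there), a second quantile normalization or centring on array medians, removal of dim probe sets, averaging a gene's probe sets or taking that with the smallest p, and omitting single arrays. Calls were compared by gene, and genes failing under both settings compared were treated as alike whatever their sign. Precision is limited by the number of arrays.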

Additional observations from a re-analysis of the deposited data

How the results depend on the processing

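The count of 1 matrix gene higher in Hsf4-null lenses became 0 when the methods' t-test was adjusted by Benjamini-Hochberg, and ran from 0 to 2 over the 6 omissions of an array. It was 0 without wild-type replicate 3 or without any of the 3 Hsf4-null arrays, and 2 (Col1a1 and Lama4) without wild-type replicate 1. The count of 0 lower became 1 (Col4a1) with the methods' t-test at its own threshold and was 0 elsewhere. The methods pair that t-test with a significance analysis of microarrays, which was not run here, so these are not calls by the full criterion of the study. With a replicate block the counts stayed at 1 and 0, with an adjusted p of 0.0383 for Col1a1 from limma. No source used here says whether the replicate numbers pair the arrays. Deviations of same-numbered arrays from their group means correlated at 0.252, -0.206 and -0.0806. These values cannot settle the question, because arrays of different numbers were not compared. With the block, Loxl1 lost its call (adjusted p = 0.0746 from limma), as it did under median centring (0.0707). With the adjusted t-test Loxl1, P4ha2, Timp3 and Twist1 all lost theirs, and Timp3 and Twist1 kept them under the other alternatives that gave them a value; Twist1 gave none when dim probe sets were left out. Over all genes the 96 calls higher and 261 lower became 66 and 162 with the block, 718 and 942 with the methods' t-test at its threshold, 13 and 39 after its adjustment, and 151 and 344 with trended and robust variance. Omitting 1 array gave 55 to 105 higher and 140 to 227 lower. The median fibrillar change stayed above the median type IV change throughout, by 0.21 to 0.66. Of the 50 matrix genes 28 remained when dim probe sets were left out, and for the others low signal limits what can be measured.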
